A study of Mus musculus with 8 samples.

Results

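The genes described here are 6 membrane mucins (Muc1, Muc4, Muc15, Muc16, Muc20 and Muc21), 3 enzymes of mucin-type O-glycosylation (Galnt1, Galnt3 and C1galt1) and galectin 3 (Lgals3). They were chosen by symbol from the expression table, where all 10 were found among 23597 genes. Messenger RNA was measured by RNA-seq in mouse corneas on day 14 of scopolamine injection, a muscarinic antagonist used to provoke dry eye. The ICI group (4 libraries) came from dry eye mice given ICI 118551, which blocks the β2-adrenergic receptor, and the Scop group (4 libraries) from dry eye mice without it. Each library held 4 pooled corneas, and all 8 came from scopolamine-injected mice, so no normal cornea was measured. The labels give no strain, sex or age of the mice and no dose or route of ICI 118551. The labels do not tie the pools to individual mice, so a p-value here reflects only how far the 8 samples spread.

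Membrane mucins are long glycoproteins that span the surface cells of the wet epithelia and reach into the tear film. Their extracellular parts are rich in serine and threonine, to which polypeptide GalNAc transferases (the Galnt enzymes) attach a first sugar, N-acetylgalactosamine, and C1galt1 adds galactose to that sugar to form the core 1 glycan. On the ocular surface galectin 3 binds galactose-bearing glycans of the mucins and crosslinks them, and the resulting glycocalyx holds water and limits the entry of dyes and microbes.

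The coding sequences show the feature that the mucins share and the other genes lack. In the longest coding transcript of the GENCODE annotation for the mouse build GRCm38, which is the mm10 build of the files, serine and threonine codons made up 59.9% of Muc21, 38.1% of Muc4, 35.2% of Muc20, 34.9% of Muc1, 31.9% of Muc16 and 23.6% of Muc15. In Galnt1, Galnt3 and C1galt1 the share lay between 9.64% and 10.6%, and in Lgals3 it was 7.58%. Muc21, Muc4 and Muc16 also carry long repeats. In Muc21 a period of 60 codons ran through 75.9% of the coding sequence, in Muc4 a period of 124 codons through 17.5%, and in Muc16 a period of 152 codons through 6.43%. Lgals3 has a short repeat of 18 codons, built on glycine and proline, in the stretch ahead of its carbohydrate-binding domain. A unit of each repeat is printed 5′ to 3′ on the coding strand, with serine and threonine codons in capitals, to show how densely the sites of O-glycosylation lie in the mucins and that the galectin repeat has none. The Muc21 unit is a whole 60-codon period with 40 serine and threonine codons, from exon 2 of 3 (chr17:35622222-35622401, minus strand). Within it a shorter motif recurs in near-copies, so 60 codons is the period found by the search and not the shortest repeat of the gene. The Muc4 sequence is the first 50 codons of the 124-codon unit, 27 of them serine or threonine, from exon 2 of 27 (chr16:32751633-32751782, plus strand). The Lgals3 sequence is from exon 3 of 6 (chr14:47380119-47380172, plus strand).
Muc21: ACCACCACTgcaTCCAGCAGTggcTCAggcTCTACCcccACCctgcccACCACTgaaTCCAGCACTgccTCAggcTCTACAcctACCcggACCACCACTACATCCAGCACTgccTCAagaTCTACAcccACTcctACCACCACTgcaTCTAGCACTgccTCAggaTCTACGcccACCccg
Muc4: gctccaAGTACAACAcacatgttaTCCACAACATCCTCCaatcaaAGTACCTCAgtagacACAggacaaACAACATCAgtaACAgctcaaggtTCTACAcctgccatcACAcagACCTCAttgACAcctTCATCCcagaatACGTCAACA
Lgals3: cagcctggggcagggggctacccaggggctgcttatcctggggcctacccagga

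Repeats and overlaps bear on what the libraries could count. Of all 50-base windows of the Muc21 transcript 39.2% occurred more than once in it, against 10.1% in Muc4, 2.06% in Muc16, 1.28% in Muc1 and 0% in the others. The Muc4 and Muc20 genes lie tail to tail on chromosome 16 (32735886 to 32782391, plus strand, and 32777419 to 32797435, minus strand). They share 627 exonic bases, which are 5.33% of the exonic bases of Muc4 and 15.6% of those of Muc20, and it is not stated whether strand was used in counting. Muc15 (chromosome 2, 110721340 to 110739527) shares 1.71% with Ano3 on the other strand. In this annotation Muc21 carries the name Gm9573 (chromosome 17, 35617923 to 35626637, minus strand) and was matched by its synonym. The remaining genes shared no exonic base with another gene. They were Muc1 (chromosome 3, 89229057 to 89233381), Muc16 (chromosome 9, 18495455 to 18674530, minus strand), Galnt1 (chromosome 18, 24205344 to 24286818), Galnt3 (chromosome 2, 66082766 to 66124994, minus strand), C1galt1 (chromosome 6, 7844842 to 7875687) and Lgals3 (chromosome 14, 47367751 to 47386160).

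The values are FPKM, in which fragment numbers are divided by gene length and by depth, so levels can be set side by side between genes. The repeats of Muc21, the overlap of Muc4 with Muc20 and the gene model of C1galt1, described with that gene, limit such comparisons for these genes. Whole fragments recovered from the steps of the FPKM came to between 34354346 and 39885822 per library. All 9 markers of the corneal epithelium were present, led by Krt12 and Aldh3a1. Their summed level lay between 33644 and 35583 FPKM in ICI and between 33554 and 38453 FPKM in Scop, highest in Scop replicate 3. Scop replicate 3 stood apart from the other libraries. Its 8 keratocyte markers, genes of the stromal cells, summed to 653 FPKM, against 1674 to 2257 FPKM in ICI and 1664 to 1977 FPKM in the other Scop libraries. Its 5 conjunctival epithelium markers summed to 1863 FPKM, against 1203 to 1265 FPKM in ICI and 1121 to 1292 FPKM in the other Scop libraries. Nearly all of that sum was Krt13 (1468 FPKM), Krt4 (257 FPKM) and Krt19 (132 FPKM). Krt8 and Krt18 did not exceed 8.36 and 1.80 FPKM in any Scop library, so the sum says little about them. Values without this library are given for Muc21, Muc20, Galnt1, Galnt3, Lgals3, Lgals1, Mmp14, Fut4 and Galnt12. They are also given for B4galt1, St6galnac1, St3gal1 and Rdx, and for keratocyte and conjunctival markers. Of 6 goblet cell markers 3 were in the table, with a sum of 3.51 to 4.22 FPKM in ICI and 3.07 to 7.22 FPKM in Scop, highest in Scop replicate 3. Nearly all of that sum was Agr2, while the defining factor Spdef did not exceed 0.0508 FPKM. In bulk samples fewer cells of a type and less RNA per cell cannot be told apart.

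The levels of the 10 genes spanned a wide range with a nearly fixed order. Averaged over the 8 libraries, Lgals3 came first at 514 FPKM, followed by Muc4 (121 FPKM), Muc21 (82.3 FPKM), Galnt3 (43.8 FPKM), Muc20 (36.2 FPKM), Muc15 (29.3 FPKM), Galnt1 (23.3 FPKM), Muc1 (13.1 FPKM) and C1galt1 (2.04 FPKM). Each gene stood above the next in all 8 libraries, except that Galnt3 did so over Muc20 in 7 of 8, with Muc20 higher in ICI replicate 3. The ranges over the libraries overlapped between Galnt3 and Muc20, between Muc20 and Muc15, and between Muc15 and Galnt1, and were separate between the other neighbours. Muc16, the giant membrane mucin known from the human ocular surface, was listed at or near 0. It had 0 fragments in 7 libraries and 1 fragment in Scop replicate 3 (0.00108 FPKM), out of 304661829 fragments in all. Recovery gives 1 fragment to any gene above 0 in a single library, so that count was fixed by the method. A count of 1 implies a gene model of 27.02 kb, close to the 25.44 kb of the annotated transcript. In the 7 libraries at 0, such a count allows up to 3 fragments, which is a level between 0.00278 and 0.00309 FPKM, for counting error only. Whether the annotation or the counting used for the table left out fragments of Muc16 cannot be read from it, so the values say how much was counted and not that the gene is silent.

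**Figure D1:**
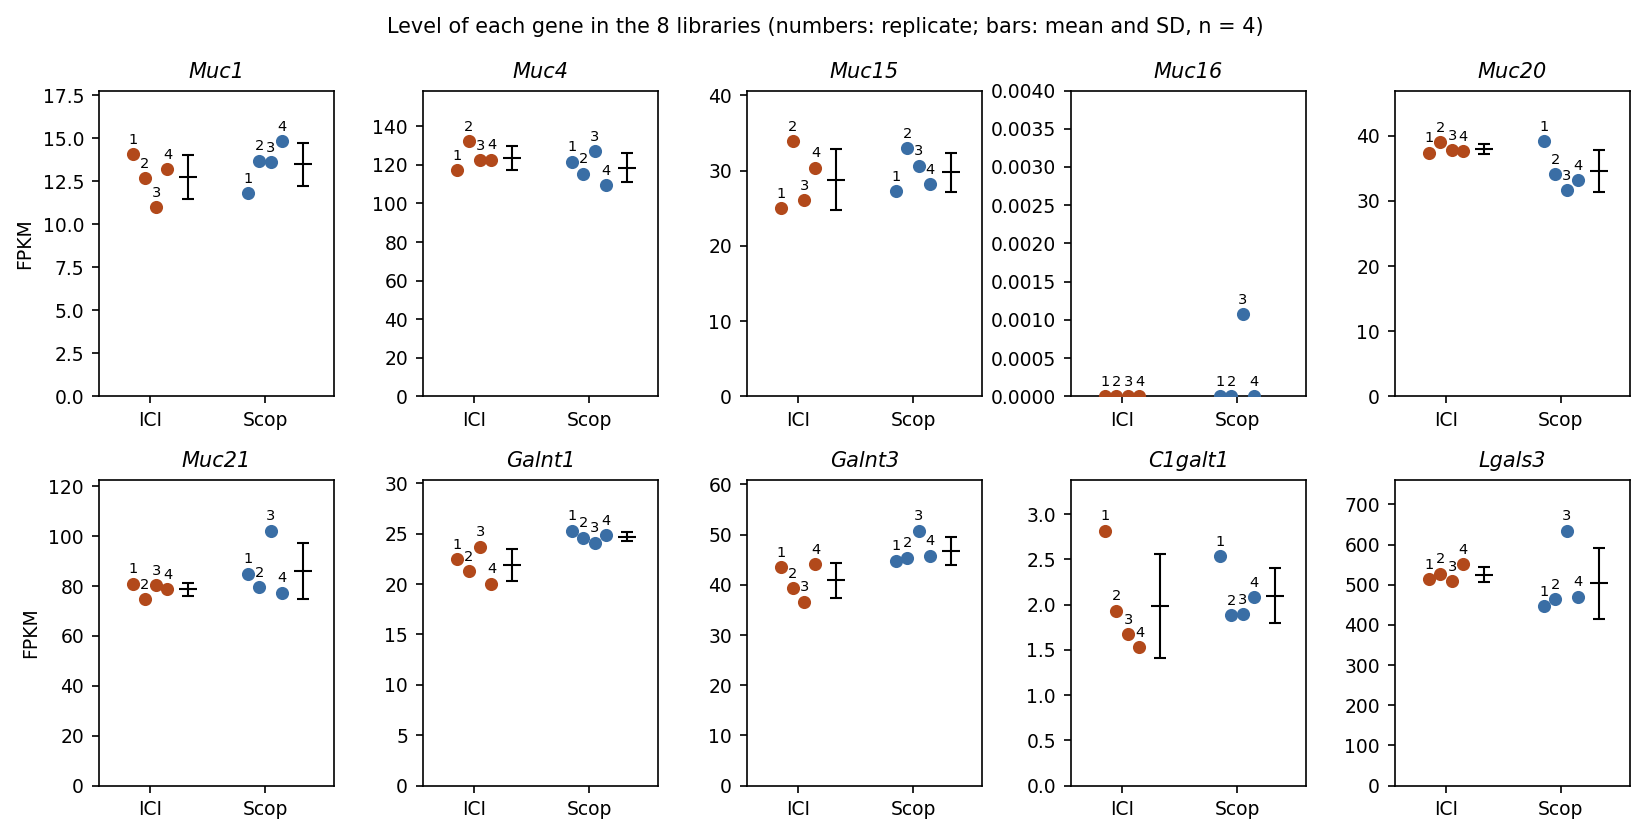
FPKM of each of the 10 genes in the 4 ICI and 4 Scop libraries, with the replicate number at each point and the mean and SD (n = 4) beside each group except for Muc16; every axis starts at 0. The ICI points lie below all Scop points for Galnt1 and Galnt3, Scop replicate 3 stands above the rest for Muc21, Galnt3 and Lgals3, and Muc16 is at 0 in 7 libraries.

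No difference in these transcripts was called between dry eye corneas with and without ICI 118551. Of the 10 genes 9 reached the mean of 0.5 FPKM needed for the test, limma on log2(FPKM + 1) over 12100 genes, and 0 of the 9 passed at an adjusted p under 0.05, as did 0 of all genes tested (0%). Without adjustment, 0 of the 9 were higher and 2 were lower in ICI at p under 0.05, against 4.56% and 7.46% of all genes tested. Of the genes with such a p, 37.9% were higher in ICI, a share that was 87.3% after scaling to the corneal epithelium markers and 27.1% with a keratocyte score as a covariate. That score, the mean log2(FPKM + 1) of the keratocyte markers, was 5.07 in Scop replicate 3 and 6.18 to 6.55 in the other libraries. The covariate is thus largely set by that library. The 2 members lower at such a p, Galnt1 and Galnt3, were also those whose groups did not overlap, which held for 6.98% of all genes (4.36% with ICI lower). The median log2 fold change of the 9 genes was -0.07, beside -0.015 over all genes tested, and adjusted p ran from 0.302 for Galnt1 to 0.864 for C1galt1.

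**Figure D2:**
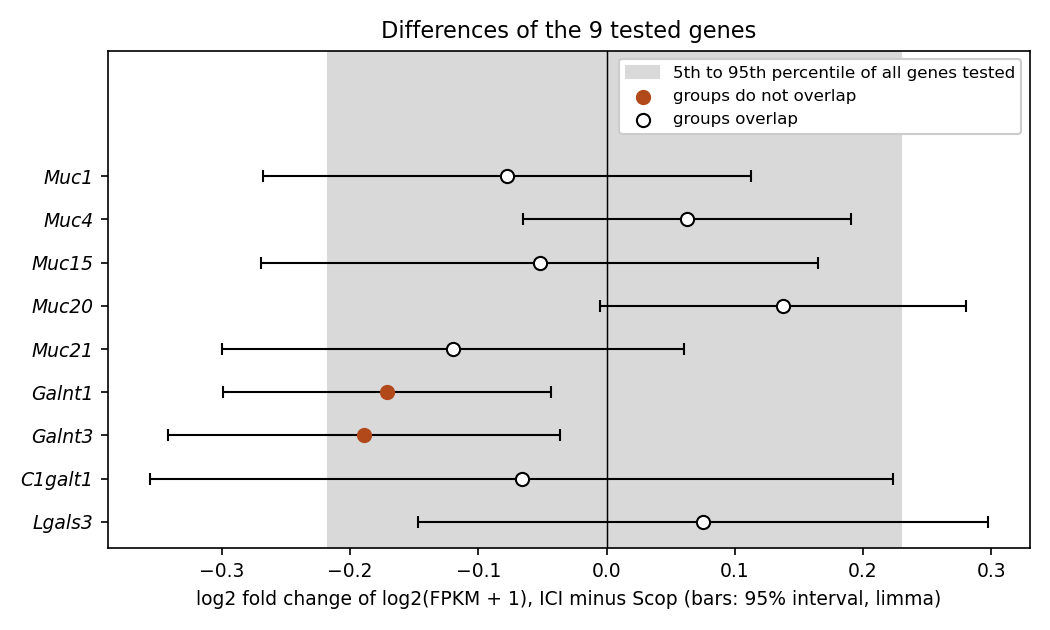
Log2 fold change of log2(FPKM + 1), ICI minus Scop, for the 9 tested genes with limma's 95% interval; filled points mark genes whose groups do not overlap, and the grey band holds the 5th to 95th percentile of all genes tested (-0.22 to 0.23). All 9 estimates lie within the band, and only the intervals of Galnt1 and Galnt3 leave out 0.

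Muc4, the most abundant of the 6 mucins and a large protein with epidermal growth factor-like domains, was at 117, 132, 122 and 123 FPKM in ICI replicates 1 to 4, against 122, 116, 127 and 109.6 FPKM in Scop replicates 1 to 4. The groups overlapped, with ICI replicate 2 highest and Scop replicate 4 lowest. The means were 124 ± 6.17 FPKM in ICI and 118 ± 7.49 FPKM in Scop (SD, n = 4 each, as for all means below), and the log2 fold change was 0.06 (SE 0.06, 95% interval -0.07 to 0.19, limma's adjusted p = 0.691). Muc4 rested on at least 49232 fragments in each library, and its coefficient of variation was 4.99% in ICI and 6.33% in Scop.

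Muc21, also called epiglycanin, is the mucin whose repeat is shown above. It was at 80.9, 74.7, 80.3 and 78.7 FPKM in ICI, against 84.9, 79.6, 102 and 77.4 FPKM in Scop. Scop replicate 3 was the highest library, Scop replicate 1 lay above the ICI range too, and the other Scop libraries lay within it. The log2 fold change was -0.12 (SE 0.08, interval -0.30 to 0.06, limma's adjusted p = 0.584), and without Scop replicate 3 it was -0.03 (adjusted p = 0.816). With the keratocyte score as a covariate, which that library largely sets, it was -0.01 (unadjusted p = 0.837, adjusted p = 0.948). The sum of the conjunctival markers, mostly Krt13, also stood apart in Scop replicate 3, as given above. Their part in the result was not tested.

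Muc20, a short membrane mucin, showed the reverse order. It stood at 37.3, 39.0, 37.8 and 37.6 FPKM in ICI, against 39.1, 34.1, 31.6 and 33.2 FPKM in Scop. The ICI values were close together (coefficient of variation 1.96%, against 9.35% in Scop), and 3 of 4 Scop libraries lay below all of them, while Scop replicate 1 lay above. The log2 fold change was 0.14 (SE 0.06, interval -0.0048 to 0.28, limma's unadjusted p = 0.0567, adjusted p = 0.426). Without Scop replicate 1, the library that went against the difference, it was 0.20 (unadjusted p = 0.00348, adjusted p = 0.227). Without Scop replicate 3, which had the lowest value, it was 0.10 (unadjusted p = 0.142, adjusted p = 0.504). With all libraries it was 0.15 after median-ratio scaling (limma's unadjusted p = 0.0203, adjusted p = 0.341). With the keratocyte score as a covariate Muc20 was at 0.08 (unadjusted p = 0.235, adjusted p = 0.597).

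Muc15, a small membrane mucin, was at 24.98, 33.9, 26.0 and 30.4 FPKM in ICI, against 27.3, 32.98, 30.7 and 28.2 FPKM in Scop. The ICI libraries covered the whole Scop range, and the log2 fold change was -0.05 (interval -0.27 to 0.16, limma's adjusted p = 0.857). Muc1, which signals through its cytoplasmic tail, was at 14.1, 12.7, 11.01 and 13.2 FPKM in ICI, against 11.8, 13.7, 13.6 and 14.8 FPKM in Scop. Its groups overlapped too, and the log2 fold change was -0.08 (interval -0.27 to 0.11, limma's adjusted p = 0.745). With a library left out it ran from -0.135 without Scop replicate 1 to -0.01 without ICI replicate 3.

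Within the 6 mucins, Muc4 and Muc21 together made up most of the summed FPKM in every library. The FPKM of the 6 summed to 275, 292, 278 and 283 in ICI, against 285, 276, 305 and 263 in Scop, with means of 282 ± 7.805 in ICI and 282 ± 17.6 in Scop. Of this sum Muc4 made up 43.9 ± 1.05% in ICI and 42.0 ± 0.507% in Scop, and Muc21 27.9 ± 1.74% in ICI and 30.4 ± 2.11% in Scop. Muc20 made up 13.5 ± 0.160% in ICI and 12.3 ± 1.40% in Scop, with the lowest share, 10.4%, in Scop replicate 3. Muc15 and Muc1 averaged 10.2% and 4.53% in ICI, against 10.6% and 4.80% in Scop. The Muc4 share lay between 42.7% and 45.2% in ICI and between 41.6% and 42.7% in Scop, so the lowest ICI and the highest Scop library stood side by side. A share is free of any scaling between libraries, and these shares were not tested.

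**Figure D3:**
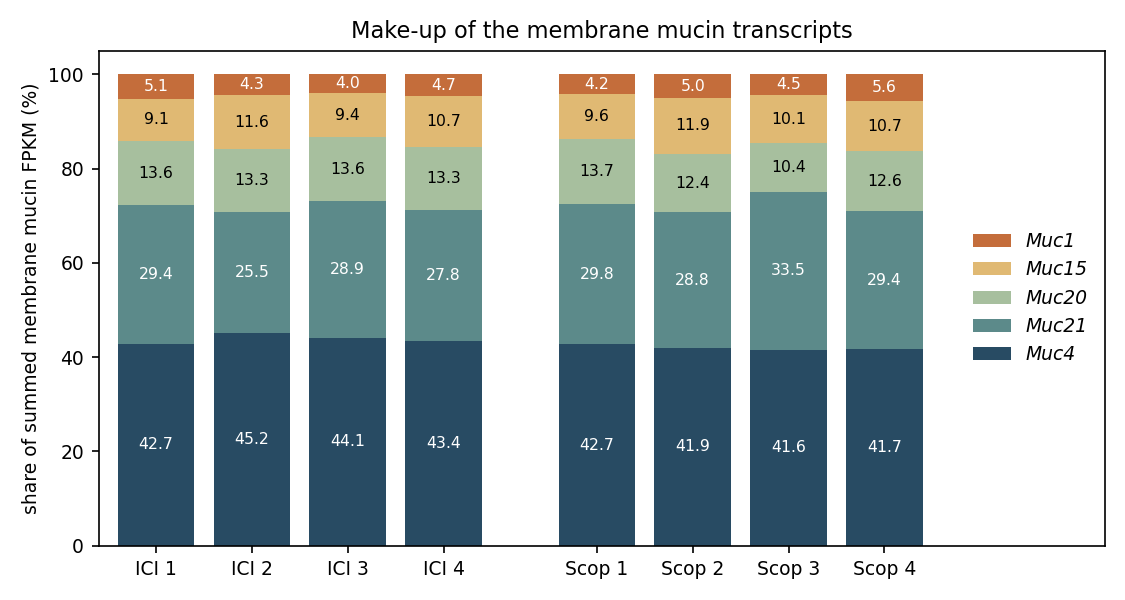
Share of each membrane mucin in the summed membrane mucin FPKM of a library, in percent, for 4 ICI and 4 Scop libraries; Muc16, at or near 0, is not drawn. Muc4 and Muc21 lead in every library, and Scop replicate 3 has the largest share of Muc21 (33.5%) and the smallest of Muc20 (10.4%).

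The enzymes that start O-glycans were the only genes of the 10 whose groups were separate. Galnt1, a broadly expressed GalNAc transferase, was at 22.4, 21.3, 23.7 and 20.05 FPKM in ICI, against 25.3, 24.6, 24.1 and 24.8 FPKM in Scop. Every ICI library lay below every Scop library, by a margin that was narrow between ICI replicate 3 and Scop replicate 3. The means were 21.9 ± 1.57 FPKM in ICI and 24.7 ± 0.487 FPKM in Scop, and the log2 fold change was -0.17 (SE 0.06, interval -0.30 to -0.04, limma's unadjusted p = 0.0138, adjusted p = 0.302). Without Scop replicate 3 it was -0.18 (limma's unadjusted p = 0.0157, adjusted p = 0.248). Scaled to the 9 corneal epithelium markers it was -0.07 (adjusted p = 0.862), the smallest difference of all alternatives run. That scaling also moved the median of all genes tested from -0.015 to 0.07. Its factor was 1.18 in Scop replicate 3 and 0.94 to 1.05 in the other libraries.

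Galnt3, the transferase of secretory and squamous epithelia that also glycosylates the phosphate hormone FGF23, was at 43.5, 39.4, 36.7 and 44.1 FPKM in ICI, against 44.8, 45.4, 50.8 and 45.8 FPKM in Scop. The groups were again separate, with ICI replicate 4 just under Scop replicate 1. The means were 40.9 ± 3.501 FPKM in ICI and 46.7 ± 2.75 FPKM in Scop, and the log2 fold change was -0.19 (SE 0.07, interval -0.34 to -0.04, limma's unadjusted p = 0.0202, adjusted p = 0.331). Without Scop replicate 3, its highest library, the value was -0.15 (limma's unadjusted p = 0.0514, adjusted p = 0.356) and the groups stayed separate. Scaled to the epithelium markers it was -0.09 (adjusted p = 0.795), with the median of all genes moved to 0.07 as for Galnt1.

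Cell type markers are given beside these enzymes. At an unadjusted p under 0.05, 2 of 9 corneal epithelium markers (Klf5 and Cldn4) were lower in ICI. So were 2 of 5 conjunctival epithelium markers (Krt4 and Krt19), and 0 of either list were higher. Over all genes tested the shares were 7.46% lower and 4.56% higher. Median log2 fold changes were -0.06 and -0.31 for the lists. Among conjunctival markers, Krt8 was at -0.35 and Krt13 at -0.08, while Krt18 was at 0.43 (limma's unadjusted p = 0.066). Without Scop replicate 3, Krt13 was at 0.08, Krt4 at -0.20 and Krt19 at -0.19. All 7 tested keratocyte markers had positive values, with a median of 0.53 and 1 unadjusted p under 0.05 (Aldh1a1). Without Scop replicate 3, where their sum was lowest, the 7 values ran only from 0.05 (Col5a1) to 0.24 (Kera). After adjustment 0 of the markers of these lists passed with all libraries. With the keratocyte score as a covariate Galnt1 was at -0.19 (limma's adjusted p = 0.216) and Galnt3 at -0.14 (adjusted p = 0.410). Scop replicate 3 largely sets that score, as given above. The part of the conjunctival markers was not tested.

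The libraries in which these enzymes were lowest were not the same. Galnt1 was lowest in ICI replicate 4, where Galnt3 was highest among the ICI libraries, and Galnt3 was lowest in ICI replicate 3, where Galnt1 was highest among them. The ratio of Galnt3 to Galnt1 within a library accordingly ran from 1.55 to 2.20 in ICI and from 1.77 to 2.11 in Scop, with means of 1.88 ± 0.268 in ICI and 1.89 ± 0.147 in Scop.

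C1galt1, the enzyme that builds core 1, was low, at 2.82, 1.93, 1.67 and 1.53 FPKM in ICI, against 2.54, 1.88, 1.89 and 2.08 FPKM in Scop. ICI held both the highest and the lowest library, and the log2 fold change was -0.07 (SE 0.13, interval -0.36 to 0.22, limma's adjusted p = 0.864). The gene had between 119 and 229 fragments per library, so counting alone gives a relative error of up to 9.17%. The gene model behind its FPKM was 2.07 kb long, while the annotated transcript has 6.09 kb.

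Lgals3, which binds galactose on mucin glycans, was the most abundant of the 10, at 513, 527, 509 and 551 FPKM in ICI, against 446, 464, 634 and 469.6 FPKM in Scop. In 3 Scop libraries it was lower than in any ICI library, while Scop replicate 3 was higher than all others. With all libraries the means were 525 ± 19.0 FPKM in ICI and 504 ± 87.8 FPKM in Scop, with a log2 fold change of 0.08 (SE 0.10, interval -0.15 to 0.30, limma's adjusted p = 0.791). Without Scop replicate 3 the Scop mean was 459.9 ± 12.2 FPKM (n = 3) and the log2 fold change 0.19 (unadjusted p = 0.00201, adjusted p = 0.165). With the keratocyte score as a covariate it was 0.23 (unadjusted p = 0.000417, adjusted p = 0.119). None of these fits passed. The score was 5.07 in Scop replicate 3 and 6.18 to 6.55 elsewhere, so the covariate fit is not separate from leaving that library out. The part of the conjunctival markers, whose sum was highest in Scop replicate 3, was not tested.

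**Figure D4:**
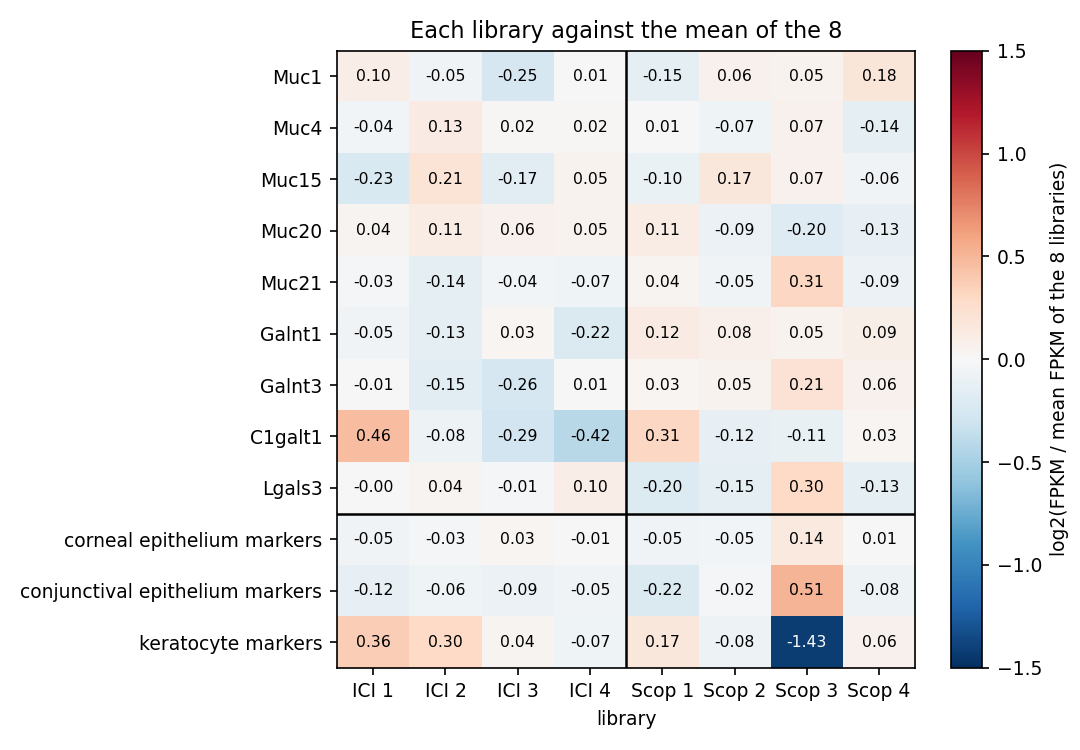
Log2 of the FPKM of each library over the mean of the 8 libraries, for the 9 detected genes and for the summed markers of corneal epithelium, conjunctival epithelium and keratocytes; libraries run across, ICI left of the line. Scop replicate 3 has the highest values of Muc21 (0.31), Lgals3 (0.30), Galnt3 (0.21), the conjunctival markers (0.51) and the corneal epithelium markers (0.14). It has the lowest values of the keratocyte markers (-1.43) and Muc20 (-0.20).

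Other genes that build, modify, anchor or shed mucins were grouped by known role into 8 lists of 83 symbols in all. Of these 73 were in the table and 44 could be tested. After adjustment 0 of the 44 passed, and without it 1 was higher and 5 were lower in ICI at p under 0.05, against the 4.56% and 7.46% of all genes given above. Their median log2 fold change was -0.05, beside -0.015 over all genes tested.

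Among the other GalNAc transferases, Galnt18 was the most abundant, at 90.5 ± 3.02 FPKM in ICI and 95.9 ± 6.47 FPKM in Scop, above both Galnt3 and Galnt1. Of 8 tested, 6 had negative values, and Galnt12 had the smallest p (6.58 ± 0.316 FPKM in ICI, 7.73 ± 1.02 FPKM in Scop, log2 fold change -0.20, unadjusted p = 0.0495, adjusted p = 0.414). Without Scop replicate 3 the Galnt12 value was -0.16 (limma's unadjusted p = 0.115, adjusted p = 0.468). B4galt1, which adds galactose to N-acetylglucosamine as glycan chains grow, was at 35.4, 32.5, 35.4 and 38.2 FPKM in ICI, against 40.5, 38.9, 42.1 and 41.1 FPKM in Scop. Its groups did not overlap (log2 fold change -0.20, SE 0.06, limma's unadjusted p = 0.00572, adjusted p = 0.256). Without Scop replicate 3 the B4galt1 value was -0.18 (limma's unadjusted p = 0.0138, adjusted p = 0.238).

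Of the capping enzymes, St6galnac1, a sialyltransferase that acts on the first sugar of the O-glycan, was the most abundant. It was at 124, 156, 146 and 125 FPKM in ICI, against 119, 119, 118 and 108.7 FPKM in Scop. All ICI libraries lay above all Scop libraries (log2 fold change 0.24, SE 0.08, limma's unadjusted p = 0.0113, adjusted p = 0.293). Without Scop replicate 3 the St6galnac1 value was 0.25 (limma's unadjusted p = 0.0159, adjusted p = 0.249). St3gal1, which sialylates core 1, was separate in the other direction, at 1.99 ± 0.203 FPKM in ICI and 2.45 ± 0.316 FPKM in Scop (log2 fold change -0.21, limma's unadjusted p = 0.0393, adjusted p = 0.388). Without Scop replicate 3 the St3gal1 value was -0.24 (limma's unadjusted p = 0.0249, adjusted p = 0.278). Fut4, a fucosyltransferase of terminal glycan structures, had the largest difference of the lists, at 4.39, 4.01, 5.70 and 10.1 FPKM in ICI, against 9.93, 9.88, 18.3 and 11.5 FPKM in Scop. Its groups overlapped through ICI replicate 4 (log2 fold change -0.96, SE 0.26, unadjusted p = 0.00385, adjusted p = 0.228). Without Scop replicate 3, its highest library, the Fut4 value was -0.77 (limma's unadjusted p = 0.00814, adjusted p = 0.204).

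**Figure D5:**
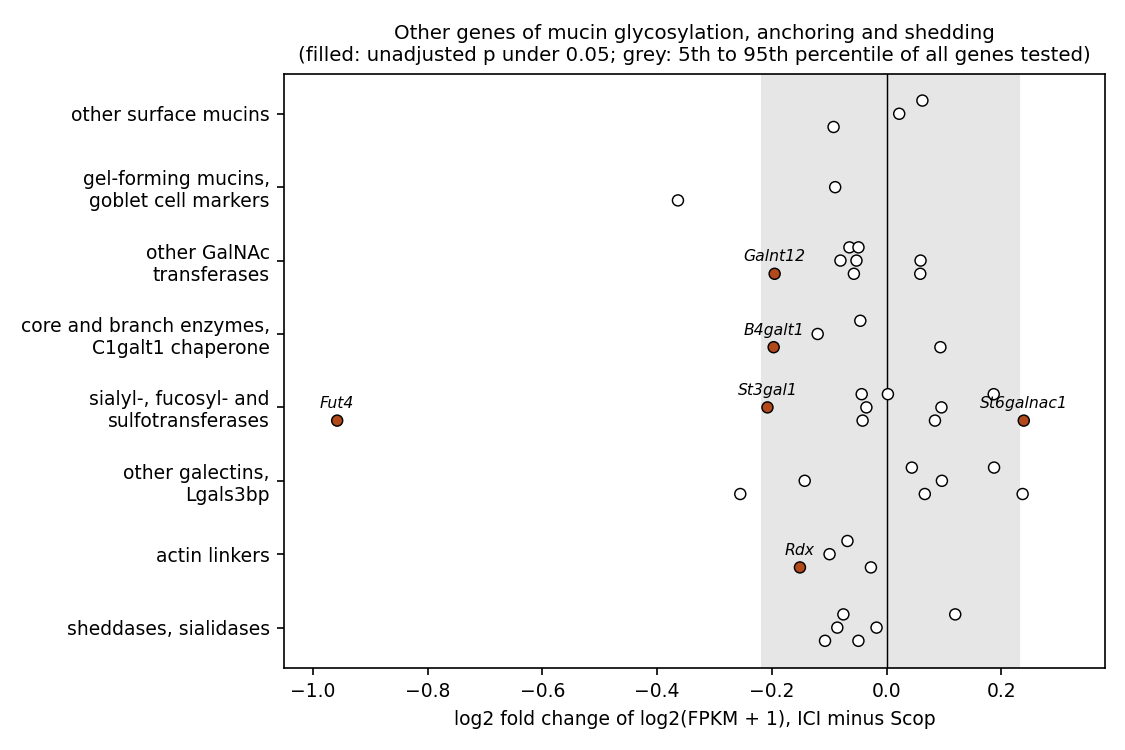
Log2 fold change of log2(FPKM + 1), ICI minus Scop, for the 44 tested genes of the 8 lists, with 1 row per list; filled and named points have an unadjusted p under 0.05, and the grey band holds the 5th to 95th percentile of all genes tested. Fut4 (-0.96) lies far left of the band, and St6galnac1 (0.24) is the only filled point on the right.

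Ezrin, radixin and moesin tie the tails of membrane mucins to actin. Rdx, the radixin gene, was at 34.5, 32.6, 32.4 and 32.8 FPKM in ICI, against 39.1, 38.4, 34.6 and 35.5 FPKM in Scop, without overlap (log2 fold change -0.15, SE 0.05, limma's unadjusted p = 0.0173, adjusted p = 0.317). Without Scop replicate 3 the Rdx value was -0.18 (limma's unadjusted p = 0.00656, adjusted p = 0.193). Ezr, the ezrin gene and the most abundant of the 4 tested linkers, was at 263 ± 9.93 FPKM in ICI and 282 ± 20.3 FPKM in Scop. Of the 6 tested sheddases and sialidases 0 had an unadjusted p under 0.05, among them the membrane protease gene Mmp14 (57.2 ± 4.79 FPKM in ICI, 59.2 ± 5.86 FPKM in Scop). The log2 fold change of Mmp14 was -0.05, and 0.01 without Scop replicate 3.

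Of the other galectins Lgals1 was the most abundant, at 51.0 ± 5.47 FPKM in ICI and 46.2 ± 18.02 FPKM in Scop, with 21.7 FPKM in Scop replicate 3, where Lgals3 was highest. Without that library the Scop mean was 54.3 ± 9.38 FPKM (n = 3), and the log2 fold change was -0.08 (limma's adjusted p = 0.806), against 0.24 with all libraries (adjusted p = 0.749), so its sign turned. Cd164, a sialomucin gene that is not among the 6 mucins, led the other surface mucins and stood above Muc4, at 280.3 ± 12.3 FPKM in ICI and 269 ± 12.96 FPKM in Scop. The gel-forming mucins Muc2 and Muc6, named for their role after their values were seen, did not exceed 0.0146 FPKM in any library. Muc5ac, Muc5b and Muc19 were looked up by symbol and were not among the genes listed, so their levels are unknown. Fcgbp, a mucus-associated protein gene, was the most abundant of that list at 7.34 ± 0.554 FPKM in ICI and 7.87 ± 0.457 FPKM in Scop.

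The genes whose levels ran most closely with Muc4, Galnt3 and Lgals3 were looked up among 7166 named genes of at least 5 FPKM, by Pearson correlation of log2(FPKM + 1) over the 8 libraries. With so many candidates and 8 libraries, high values arise readily, and these are given as a description. For Muc4 they were Rmnd5a (r = 0.95), Mxd1 (r = 0.94) and Atg9a (r = 0.93). For Galnt3 they were Klrg2 (r = 0.985), Tlnrd1 (r = 0.98) and Sgms2 (r = 0.98). For Lgals3 they were Klc4 (r = 0.98), Usf1 (r = 0.96) and Dusp7 (r = 0.96). Without Scop replicate 3 the 9 correlations lay between 0.90 and 0.98.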

How the data were processed

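RNA of 8 samples of pooled mouse corneas was sequenced, and the authors deposited 1 table of FPKM with a column per sample. The tools fastp, HISAT2 and HTSeq and the build mm10 are named by the submitters' processing notes, while versions, annotation, strandedness and any scaling between samples are not given in these sources. Columns were matched to samples by title.

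Groups were compared two-sided in R 4.3.3 by limma 3.58.1 with a mean-variance trend on log2(FPKM + 1), for genes averaging 0.5 FPKM or more, with Benjamini-Hochberg adjustment over all of them and a threshold of 0.05. It was tested on simulated data. Fold changes on this scale understate those of low genes. Whole fragments were recovered from ratios of a gene's FPKM between libraries (relative tolerance 5e-13, whole within 0.01) for 99.8% of genes. No pair of libraries was identical, and the lowest chi-square per degree of freedom between libraries was 13.1.

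The genes and lists were chosen with earlier results of these data known. Named are all 10 genes, the most abundant member of each list and its members with unadjusted p under 0.05 (at most 4), and the 3 genes most correlated with each of Muc4, Galnt3 and Lgals3. Repeats are the shortest period of at least 30 bases that covers nearly the longest repeated stretch, in GENCODE M21 transcripts. Loci are 1-based. Alternatives were pseudocounts, filters, scalings, variance estimates, the replicate number as a block, a keratocyte score as covariate, limma-voom on recovered fragments, and leaving out each library.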

Additional observations from a re-analysis of the deposited data

Results flagged for a closer look

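In 42 groups of 4 libraries (9 detected genes and 12 others named from the lists, in ICI and in Scop), the highest or lowest library was set against the rest. For Lgals3, Scop replicate 3 was at 634 FPKM, while the other Scop libraries lay between 446 and 469.6 FPKM. For Galnt3, Scop replicate 3 was at 50.8 FPKM, while the other Scop libraries lay between 44.8 and 45.8 FPKM. The gap to the nearest library was 0.876 and 0.834 of the group's range, above Dixon's 95% critical value for groups of 4. Such gaps arise by chance in about 1 in 20 groups.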

How the results depend on the processing

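Over all genes, 0 were called in the reported test, 1 after scaling to the corneal epithelium markers, 1 with the keratocyte score as a covariate, and 0 to 6 with a library left out (1 without Scop replicate 1, 1 without Scop replicate 3 and 6 without Scop replicate 4). None of these was among the 10 genes or the lists, for which the number called was 0 under every alternative run. Signs reversed for C1galt1 (0.0007), Muc1 (0.0207) and Muc15 (0.0497) after scaling to the epithelium markers, which put the median of all genes at 0.07, against -0.015 in the reported test. With a library left out, C1galt1 ran from -0.19 to 0.0075 and Muc15 from -0.13 to 0.0107, and both changed sign. Without a library Muc4 ran from 0.03 to 0.10, Muc20 from 0.10 to 0.20, Muc21 from -0.17 to -0.03 and Lgals3 from 0.02 to 0.19. The other 6 genes kept their sign in every alternative, with Galnt1 between -0.21 and -0.07 and Galnt3 between -0.23 and -0.09. Of genes with an unadjusted p under 0.05, 37.9% were higher in ICI in the reported test, 87.3% after the epithelium scaling and 27.1% with the covariate. Whether replicate numbers pair the samples was not settled, as the values were mixed. Deviations of same-numbered libraries correlated at 0.29, -0.0093, 0.14 and 0.08. The highest correlations with another number were 0.075, 0.096, 0.08 and 0.14, so 2 of 4 ICI libraries were most like their own number. With the replicate block 0 genes were called, and 643 higher and 869 lower at an unadjusted p under 0.05, against 552 and 903 without it. With limma-voom on the recovered fragments 0 genes were called, and 516 were higher and 935 lower at an unadjusted p under 0.05. Depth limits C1galt1 and Muc16 most.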
